A study of Mus musculus with 20 samples.

Results

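The genes of the cytosolic ribosomal proteins were 84 of the 39253 genes in the count table of mouse ovarian follicles. Apart from the submitters' mark of genes kept for analysis, which all 84 carry, they were chosen by name and not by any measured value. They had a symbol of the Rpl, Rps or Rplp series or Rpsa. Their product was described as a ribosomal protein and neither a pseudogene nor a kinase. Of these, 51 encode proteins of the large subunit and 33 encode proteins of the small subunit. The name rule matched 87 genes before the mark, and Rpl10l, Rpl3l and Rpl32l were not kept by the submitters. The submitters kept 18169 genes. For the tests here, a filter on low counts was applied to all 39253 genes and left 17810. All 84 members passed it, so no member was lost.

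Female mice of the outbred CD-1 stock drank water that held iodoacetic acid (IAA), a by-product of water disinfection, at 500 mg/L (5 mice) or 10 mg/L (5 mice), or drank plain water (10 control mice). Exposure began at 40 days of age and lasted 35 days, and every mouse was 75 days old and in diestrus at collection. Antral follicles of 220 to 400 µm were dissected, 30 to 40 of them made up 1 library, and each library came from a single mouse, so the replicate is the mouse. The column headers place the mice in 2 experiments, which the submitters ran a month apart. Experiment 1 held the 500 mg/L mice and control replicates 6 to 10, and experiment 2 held the 10 mg/L mice and control replicates 1 to 5. Dose and experiment are thus tied together, and only the comparison of each dose with its own controls keeps the experiment constant.

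Ribosomal proteins bind ribosomal RNA in the nucleolus and form, with it, the small subunit that decodes mRNA and the large subunit that joins amino acids. Most of their mRNAs begin with a tract of pyrimidines (a TOP motif, 5′ terminal oligopyrimidine), through which mTOR signalling and the protein Larp1 set how strongly they are translated. In a growing follicle, granulosa cells divide rapidly and the oocyte stores ribosomes, and both draw on these genes. Many ribosomal protein genes also have processed copies elsewhere in the mouse genome, made from reverse-transcribed mRNA, whose sequence can be nearly that of the parent.

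The start of the transcript is shown first, because the family is known for the tract found there. In the windows from 20 bases before to 30 bases after each RefSeq gene start (GRCm38.p6), 62 members had an entry, and these were searched on both strands for 3 pyrimidine words, with overlaps allowed. The first word was CTTTCC. Another word was CTTTTC. The last word was CTCTTT. At least 1 of them stood on the gene's strand in 23 of 62 members (37.1%), against 1685 of 27025 genes of all kinds (6.23%). On the other strand the shares were 3 of 62 members (4.84%) and 6.04% of all genes. These are matches of letters in a window and show neither where transcription started in these follicles nor how any mRNA was translated. Windows of 4 members described below that held a word follow, with the matched letters in capitals. The windows of Rps18, Rps19 and Rpl36al, also described below, held none.
Rpl38, chr11:114668560-114668609, plus strand: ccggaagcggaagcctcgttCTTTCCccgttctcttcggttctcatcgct
Rps6, chr4:86857338-86857387, minus strand: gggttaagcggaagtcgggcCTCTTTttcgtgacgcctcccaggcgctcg
Rpl26, chr11:68901546-68901595, plus strand: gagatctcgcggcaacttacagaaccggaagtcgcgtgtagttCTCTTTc
Rpl34, one of its starts, chr3:130730308-130730357, minus strand: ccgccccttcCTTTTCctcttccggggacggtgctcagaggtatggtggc

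The second set of sequences shows how little separates some members from their copies. Copies were defined as other genes of the table that shared at least 20% of their 31-base words with a member in the GENCODE M21 transcripts (GRCm38) or carried a member's name as a pseudogene. Of the 84 members, 28 had at least 1 copy among the genes kept by the submitters, and there were 42 such copies. Rpl26, a protein beside the exit tunnel of the large subunit, and the processed pseudogene Gm15772 were identical at 433 of 435 coding bases (99.54%), with the differences C177T and T288C. Rpl34, also of the large subunit, and Rpl34-ps1 were identical at 349 of 351 coding bases, with T132C and C318G. In these tokens the member's base comes first, positions count from 1 at the first coding base, and the copy's base comes last. The stretches from coding base 147 to 206 of Rpl26 and from 102 to 161 of Rpl34 are given with the differing base in capitals.
Rpl26: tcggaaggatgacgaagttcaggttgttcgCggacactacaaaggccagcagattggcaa
Gm15772: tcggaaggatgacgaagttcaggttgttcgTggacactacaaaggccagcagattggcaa
Rpl34: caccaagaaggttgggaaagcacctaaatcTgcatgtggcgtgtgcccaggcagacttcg
Rpl34-ps1: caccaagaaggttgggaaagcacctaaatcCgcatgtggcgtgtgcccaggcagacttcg

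In GRCm38, Rpl26 lies at chr11:68901583-68906989 on the plus strand and Gm15772 at chr5:3236431-3236868 on the plus strand. Rpl34 lies at chr3:130726831-130730398 on the minus strand and Rpl34-ps1 at chr6:71124610-71124963 on the plus strand. Rps6, the small-subunit protein that S6 kinases phosphorylate, and its copy Rps6-ps4 were identical at all 747 coding bases. Rps2 and its copy Gm6139 were identical at 869 of 879 coding bases. The submitters' processing notes name Salmon, which shares a read that fits several transcripts by estimation, and the build GRCm39. Counts of a member and of a near-identical copy are therefore uncertain singly and firmer as a sum.

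Levels are given as CPM, counts scaled to a library of fixed size, with library sizes adjusted by trimmed means. The 84 members together took 5.04% ± 0.337 of the scaled counts in the 500 mg/L mice, 5.14% ± 0.397 in the 10 mg/L mice and between 3.91% and 5.53% in the 10 controls (SD, n = 5 for each dose). Members of the small subunit supplied between 36.8% and 39.0% of the members' counts in every mouse. Library totals ran from 39.86 to 67.49 M estimated counts, and the common coefficient of biological variation was 24.98%. At this depth, differences among mice outweighed counting error for all but the rarest members.

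Per kilobase of coding sequence, most members stood within a narrow band. This measure leaves out the untranslated parts of the transcript, which also give reads, so ranks depend on the length used. Over the 77 members that are not paralogs and have a coding length, with copies summed in, the mean over the 20 mice had a median of 1356 CPM per kb and quartiles of 1167 and 1525. Of these, 74 lay within 2-fold of the median, 1 lay below (Rpl29, 404 CPM per kb) and 2 lay above (Rpl41 and Rps29). Without the copies, 70 lay within 2-fold and 5 lay below. Rpl41, the shortest ribosomal protein, led with 9873 CPM per kb of its 75 coding bases, but it had 1694 CPM per kb when the whole transcript was the length. Next came Rps29 (2715 CPM per kb), a zinc-binding protein of the small subunit, Rpl23a (2510) and Rplp1 (2155). Per kb of whole transcript, Rps29 had 1169, Rpl23a had 2097 and Rplp1 had 1477 CPM. Rps20 had 1426 CPM per kb of coding sequence but 137 CPM per kb of whole transcript. Per kb of coding sequence, the lowest values without copies were those of Rpl39l (4.96 CPM per kb), Rps6 (53.8), Rpl22l1 (102) and Rpl34 (103). With copies, Rps6 had 1324 and Rpl34 had 1067 CPM per kb, so both joined the band, while Rpl22l1 had 159.

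**Figure D1:**
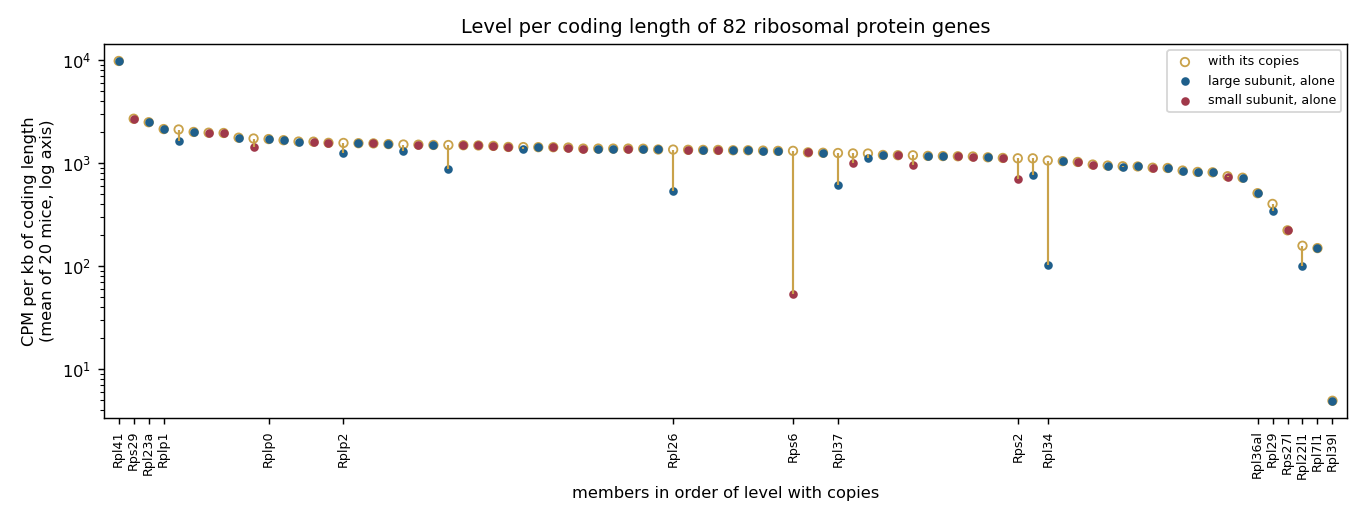
Mean level over the 20 mice in CPM per kilobase of coding sequence, on a log axis, for 82 members with a coding length, alone and with their copies, in order of the level with copies and with only some of them named on the axis. Most members lie in a narrow band around 1356 CPM per kb, the median with copies and without paralogs, and Rps6 and Rpl34 enter it only when their copies are added.

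The stalk of the large subunit, where translation factors dock, is built from Rplp0, Rplp1 and Rplp2. Per kilobase of coding sequence their levels were 1723, 2155 and 1261 CPM, and Rplp2 had 1580 CPM per kb with its copy. The paralogs, which encode alternative forms of a subunit protein, stood well below their parents. Per kilobase of coding sequence, Rpl36al had 53.9% of the level of Rpl36a, Rps27l had 13.8% of Rps27, Rpl22l1 had 12% of Rpl22 and Rpl7l1 had 11.3% of Rpl7. Rpl39l, best known from testis, had 0.295% of Rpl39. For Rps4l and Rpl6l no coding length was at hand for a comparison per length, and their mean levels over the 20 mice were 4.54 and 0.323 CPM.

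Over the 10 controls, which mix both experiments, the members had a higher median spread than other genes in their range of levels. The coefficient of variation (CV) over the 10 controls had a median of 13.0% over the 84 members and ran from 7.23% to 90.5%. For 6252 other genes of a like level, between 37.8 and 1182 CPM, the median CV was 8.79%. Within that range they were not matched to the members in level. The members' CV also takes in a difference between experiments. Their summed level was 53420 ± 1281 CPM in the controls of experiment 2 and 47570 ± 6369 CPM in those of experiment 1 (SD). The CV was not compared with other genes within 1 experiment. The steadiest members were Rpl7l1 (7.23%), Rpl27 (7.86%), Rpl36al (7.98%) and Rps23 (8.43%). The most variable were Rpl26 (90.5%), Rpl6l (54.1%), Rps4l (43.0%) and Rpl34 (38.8%). Rpl6l and Rps4l were also the least abundant of these. With the counts of the copies added, the CV was 10.65% for Rpl26 and 9.50% for Rpl34, but Rpl6l and Rps4l had no kept copy. The median over the 84 members with copies was 12.19%, still above that of the other genes.

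Rpl26 traded counts with Gm15772 from mouse to mouse. In the 500 mg/L mice, Rpl26 had 309.9, 45.6, 640.0, 301 and 44.5 CPM in replicates 1 to 5, and Gm15772 had 266, 548, 0.301, 243 and 598 CPM. In the 10 mg/L mice, Rpl26 had 615, 279, 619, 80.6 and 348 CPM and Gm15772 had 0.472, 244, 0.377, 468 and 260.1 CPM. In the controls, Rpl26 had 36.0, 35.9, 42.9, 254 and 358 CPM in replicates 6 to 10 of experiment 1 and 89.9, 82.3, 90.9, 352 and 77.7 CPM in replicates 1 to 5 of experiment 2. The mice with a high Rpl26 count were those with a low count of the copy, in every group.

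The sum of Rpl26 and Gm15772 was far steadier, between 475 and 655 CPM over all 20 mice. The share of that sum given to Rpl26 fell into 3 separate ranges. It was at least 99.9% in 3 mice (500 mg/L replicate 3 and 10 mg/L replicates 1 and 3), 53.3% to 57.3% in 7 mice, and 6.22% to 14.7% in 10 mice. Within the lowest range, the 5 mice of experiment 1 had 6.22% to 7.68% and the 5 mice of experiment 2 had 12.8% to 14.7%, so the experiments did not overlap there. These ranges were defined from the values, and no comparison between them was made.

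Rps2 and Gm6139 showed a similar exchange over a smaller range. Rps2, a protein at the mRNA entry of the small subunit, had 757, 503, 164, 459 and 567 CPM in the 500 mg/L mice and 975, 855, 567.9, 223 and 648 CPM in the 10 mg/L mice. Its controls ran from 174 to 974 CPM with a median of 689 CPM. Rps2 held between 22.7% and 79.9% of the summed counts of Rps2 and all its copies, of which Gm6139 was the most abundant. That sum ran from 713 to 1241 CPM and was lowest in the mice with the lowest Rps2. Single mice of the 500 mg/L group, of the 10 mg/L group and of the controls were far below the rest of their group, and the groups overlapped.

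The members Rps6 and Rpl34 received only a small part of the counts of their pairs in every mouse. Rps6 held 2.84% to 6.68% of the sum with Rps6-ps4, whose own level was 686 to 1097 CPM. Rpl34 held 5.84% to 14.5% of the sum with Rpl34-ps1. Rpl17, which lines the exit tunnel, has a copy, Rpl17-ps8, that holds 70.9% of its 31-base words. The level of Rpl17-ps8 was 226 to 315 CPM in the 500 mg/L mice and 0.528 to 87.7 CPM in the 10 mg/L mice. In the controls Rpl17-ps8 had 207, 0, 242, 0 and 244 CPM in replicates 6 to 10 of experiment 1 and 1.30, 12.7, 2.42, 105 and 2.21 CPM in replicates 1 to 5 of experiment 2. In controls 7 and 9, which had 0 CPM of the copy, Rpl17 had 586 and 477 CPM. Its CV over the controls was 19.44% alone and 19.84% with copies. How reads were shared between Rpl17 and Rpl17-ps8 was not tested. Statements on these members singly, below, concern the share of reads that the submitters' estimation placed on them.

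**Figure D2:**
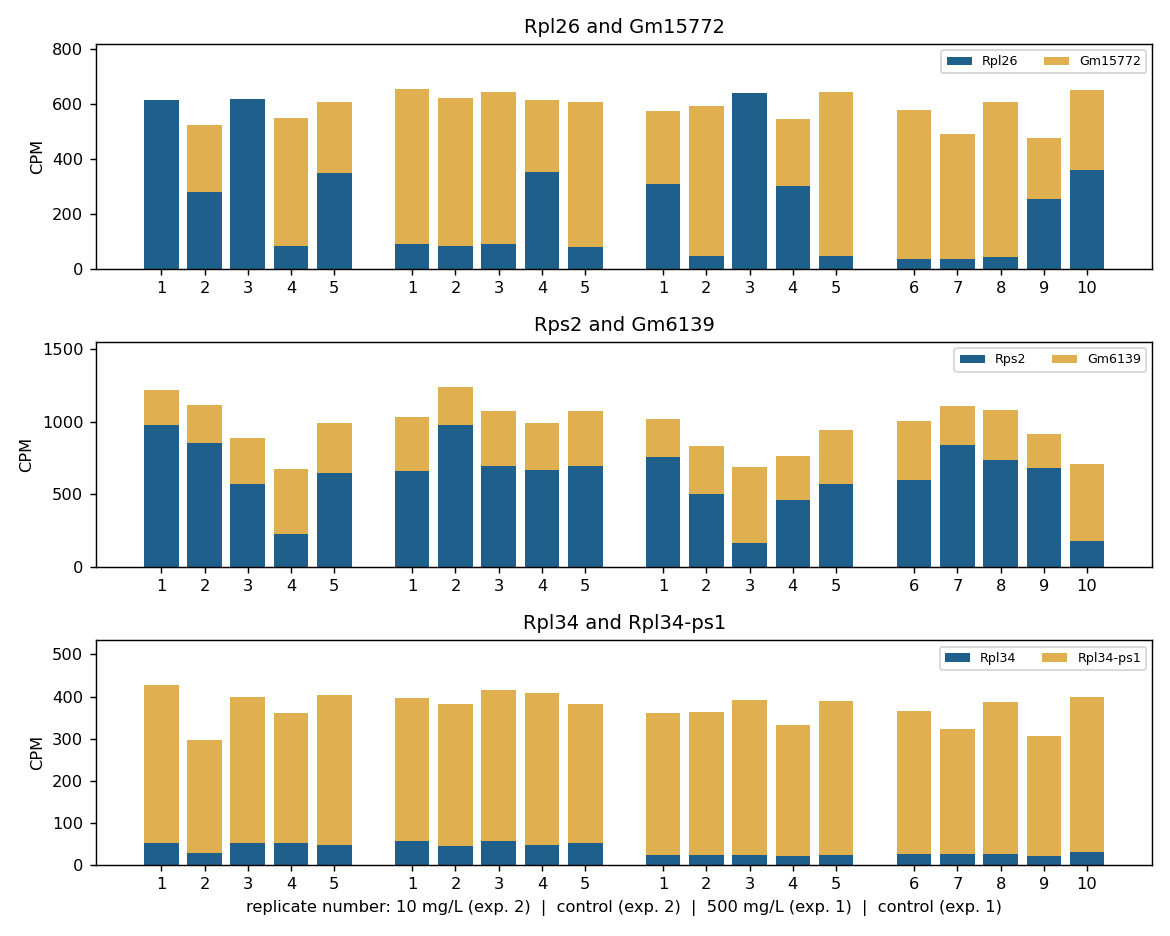
Stacked CPM per mouse of Rpl26 with Gm15772, of Rps2 with Gm6139 and of Rpl34 with Rpl34-ps1, with mice ordered by group and experiment. The total of the Rpl26 pair lies between 475 and 655 CPM while the part given to Rpl26 takes 3 distinct levels. The total of the Rps2 pair varies more (713 to 1241 CPM once its rarer copies, not drawn, are added). The part given to Rpl34 is larger in experiment 2.

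No ribosomal protein gene passed the test at 500 mg/L against all 10 controls. In edgeR's quasi-likelihood test with Benjamini-Hochberg adjustment over 17810 genes, 0 of 84 members had an adjusted p under 0.05, against 0.0112% of all tested genes, and the smallest adjusted p was 0.348 (Rpl38). DESeq2 and limma-trend also called 0 members. At an unadjusted p under 0.05, 1 member was higher and 5 were lower, against 4.51% and 4.18% of all tested genes. The 84 log2 changes split into 41 positive and 43 negative, with a median of -0.0061, beside -0.00014 over all genes.

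The smallest p-values at 500 mg/L belonged to Rpl38 and Rpl34. Rpl38, a large-subunit protein that mouse embryos need for the translation of Hox mRNAs, had 147, 152, 149, 142 and 141 CPM in the 500 mg/L mice, against a lowest, median and highest value of 129, 187 and 228 CPM in the controls. The 500 mg/L mice lay in the lower part of the control range and within it. The log2 change of Rpl38 was -0.33 (SE 0.103; adjusted p = 0.348 in edgeR). Rpl34 had 22.8, 23.4, 22.9, 20.3 and 23.5 CPM in the 500 mg/L mice, against 19.9, 37.6 and 57.7 CPM as lowest, median and highest control. Its log2 change was -0.76 (SE 0.245; adjusted p = 0.360 in edgeR), and with Rpl34-ps1 summed in it was -0.036 (SE 0.0818). The controls of Rpl34 separated by experiment, as described below, and the 500 mg/L mice sat among those of experiment 1.

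The other members with an unadjusted p under 0.05 at 500 mg/L included the paralogs Rps27l, a p53 target, and Rpl7l1, which had log2 changes of -0.18 and -0.14. Rpsa, the laminin receptor precursor and a small-subunit protein, was the only one with a positive change (0.20, SE 0.0883; adjusted p = 0.535 in edgeR). It had 1382, 1513, 1644, 1460.1 and 1655 CPM in the 500 mg/L mice, against 1086, 1343 and 1656 CPM as lowest, median and highest control. The highest exposed mice of Rpsa reached the top of the control range without passing it.

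The lower dose gave no call either. Against all controls, 0 of 84 members passed at 10 mg/L in edgeR, DESeq2 or limma-trend, and 0.00561% of all tested genes passed in edgeR. At an unadjusted p under 0.05, 1 member was higher and 1 was lower, against 3.08% and 3.14% of all tested genes. The log2 changes were positive for 48 members and negative for 36, with a median of 0.030 beside -0.00039 over all genes. Rpl36al, the paralog of Rpl36a, had the smallest p, with a log2 change of -0.24 (SE 0.0872; adjusted p = 0.727 in edgeR). It had 167, 103, 167, 153 and 139 CPM in the 10 mg/L mice, against 158, 167 and 204 CPM as lowest, median and highest control. Replicates 2, 4 and 5 lay below every control and the other two lay within the control range. Without replicate 2 the log2 change of Rpl36al was -0.14 (adjusted p = 0.998 in edgeR).

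Rpl26 had the largest change of any member at 10 mg/L, a log2 change of 1.45 (SE 0.658; adjusted p = 0.784 in edgeR). With its copies summed in, the log2 change was -0.027 (SE 0.0770), so its direction turned. Rps19, which is mutated in human Diamond-Blackfan anaemia, had a log2 change of 0.24 (SE 0.118; adjusted p = 0.799 in edgeR). The log2 changes of Rpl17 (0.18), Rpl10 (0.15), Rpl35 (-0.11) and Rpl23 (-0.11) had larger p-values, and without 10 mg/L replicate 2 those of Rpl35 and Rpl23 were -0.050 and -0.040. Both dose comparisons used the same 10 controls.

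**Figure D3:**
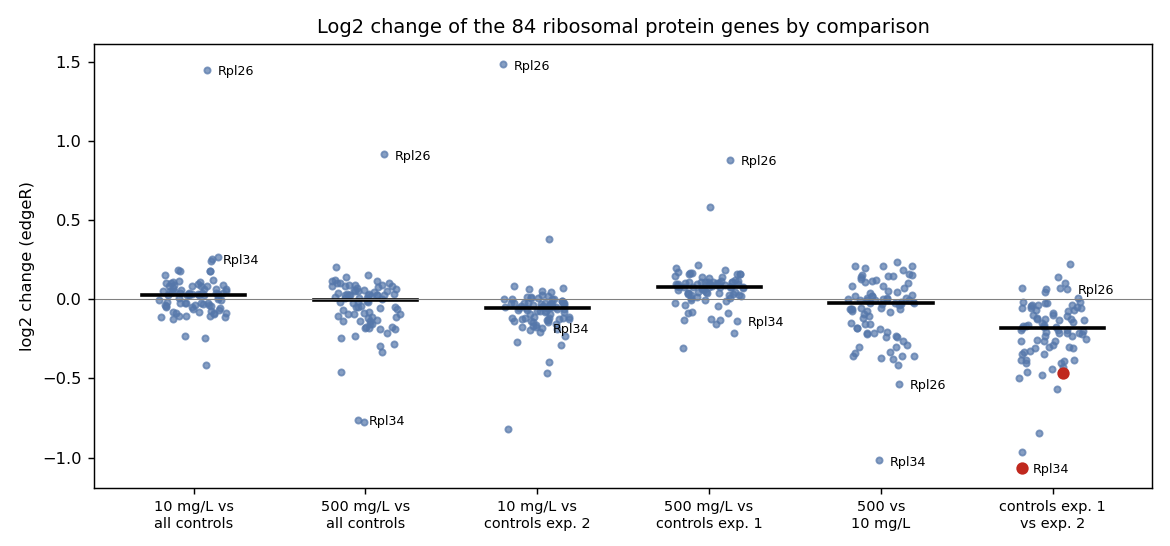
Log2 change of each of the 84 members in 6 comparisons, with members that passed the edgeR test (adjusted p under 0.05) in red and the median as a bar. The comparison of the controls of experiment 1 with those of experiment 2 has the lowest median (-0.18) and the only called members.

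Set against the controls of the same experiment, the members tilted in opposite directions at the doses, with no call at either. At 500 mg/L, 0 of 84 members passed in edgeR, against 0.0% of all tested genes, and DESeq2 and limma-trend called 0. At an unadjusted p under 0.05, 3 members were higher and 0 were lower, against 2.73% and 2.46% of all tested genes. The log2 changes were positive for 68 members and negative for 16, with a median of 0.080 beside 0.0018 over all genes. The smallest p-values belonged to Rpl39l (log2 change 0.59), Rps24 (0.22) and Rpl9 (0.19), and the smallest edgeR adjusted p of any member was 0.954. Marker genes of other cell types were also read in the same comparison, without any call in edgeR. The log2 changes were negative for all 3 luteal and all 5 leukocyte markers. They were positive for all 6 oocyte, all 5 endothelial and all 4 erythroid markers. Of these, 1 erythroid marker had an unadjusted p under 0.05, and 0 markers of the other lists did. Of 6 theca markers, 4 were positive and 2 negative, with 1 higher and 1 lower at that level. The part of these markers in the members' changes was not tested.

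At 10 mg/L, 0 of 84 members passed against the controls of experiment 2 in edgeR, against 0.0% of all tested genes, and DESeq2 and limma-trend called 0. Without adjustment (p under 0.05), 0 members were higher and 3 were lower, against 3.78% and 2.66% of all tested genes. The log2 changes were positive for 15 members and negative for 69, with a median of -0.056 beside 0.00023 over all genes. Rpl10a, which lies at the stalk opposite to that of the P proteins, had the smallest p (log2 change -0.29, SE 0.106; adjusted p = 0.725 in edgeR). It had 839, 613, 687, 717 and 799 CPM in the 10 mg/L mice, against 892, 866, 985, 752 and 963 CPM in replicates 1 to 5 of the controls. All but the highest pair of exposed mice lay below every control. Rpl38 (-0.21) and the rare paralog Rpl6l (-0.82) followed. The 5 endothelial markers were all positive in the same comparison, 4 of them at an unadjusted p under 0.05, and summed to 276 to 405 CPM in the 10 mg/L mice, against 224 to 306.5 CPM in their controls. All 3 luteal markers were positive, 2 of them at that level, and summed to 413 to 2456 CPM, against 144.5 to 991 CPM. Of 6 theca markers, 3 were positive and 3 negative, with 2 higher and 0 lower at that level. None of these markers was called in edgeR, all passed the filter on low counts, and their part in the members' changes was not tested.

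The positive tilt at 500 mg/L was not present in a fit without control mice 7 and 9, the controls with the lowest summed levels. The 84 members summed to 47930, 51550, 54790, 46190 and 51380 CPM in the 500 mg/L mice, against 42830 and 39060 CPM in controls 7 and 9 and 50020, 51690 and 54230 CPM in the other 3 controls of experiment 1. Every 500 mg/L mouse lay above controls 7 and 9, and the group overlapped the other controls. Without controls 7 and 9, the median log2 change of the members at 500 mg/L against their own controls was -0.053, with 14 positive and 70 negative and 0 called. Against all controls, the median without these mice was -0.078 at 500 mg/L and -0.035 at 10 mg/L, with 0 called in either. In the lower direction, 21 members had an unadjusted p under 0.05 at 500 mg/L, against 4.57% of all genes tested in that fit, and 4 at 10 mg/L, against 3.70%. These mice were left out after their values had been seen, and they had the lowest summed levels of the members. Leaving them out was therefore bound to lower the members' changes against the remaining controls of experiment 1 or of both experiments. The counts at an unadjusted p are thus no test of the members. The comparison with all controls then held 3 controls of experiment 1 and 5 of experiment 2, which ties it more closely to experiment.

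Control 9 had the lowest level of any mouse for 56 of the 84 members and control 7 for 4. In control 7 the 3 luteal markers (Ptgfr, Sfrp4 and Akr1c18) summed to 3030 CPM and the 5 leukocyte markers to 47.5 CPM, the highest of the 20 mice for both. In control 9 the luteal markers summed to 947 CPM, within the range of the other 18 mice. The luteal sum ran from 291 to 776 CPM in the 500 mg/L mice, from 413 to 2456 CPM in the 10 mg/L mice and from 144.5 to 3030 CPM in all controls, and all 3 markers passed the filter on low counts. The part of these cell types in the members' levels was not tested. In bulk follicles, fewer cells that carry an mRNA and less of it per cell cannot be told apart.

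In the 10 mg/L group, replicate 2 stood apart. It had the lowest summed level of its group (45550 CPM, against 49440 to 55790 CPM in the other 4), and it was the lowest of all 20 mice for 17 members. Rps18, described below, had 290.0 CPM there and 366 to 395 CPM in the other 4 mice of the dose. The 3 RNAs without a poly(A) tail (Rnu1a1, Rmrp and Rpph1) summed to 114 CPM in this mouse and to 0.367 to 2.30 CPM in the other 19. Without this mouse, the log2 changes at 10 mg/L were positive for 66 and negative for 18 members against all controls. Against their own controls, 34 were positive and 50 negative. As this mouse had the lowest summed level of its group, leaving it out was bound to raise the members' changes at 10 mg/L. The part of the RNAs without a poly(A) tail in the members' levels was not tested.

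**Figure D4:**
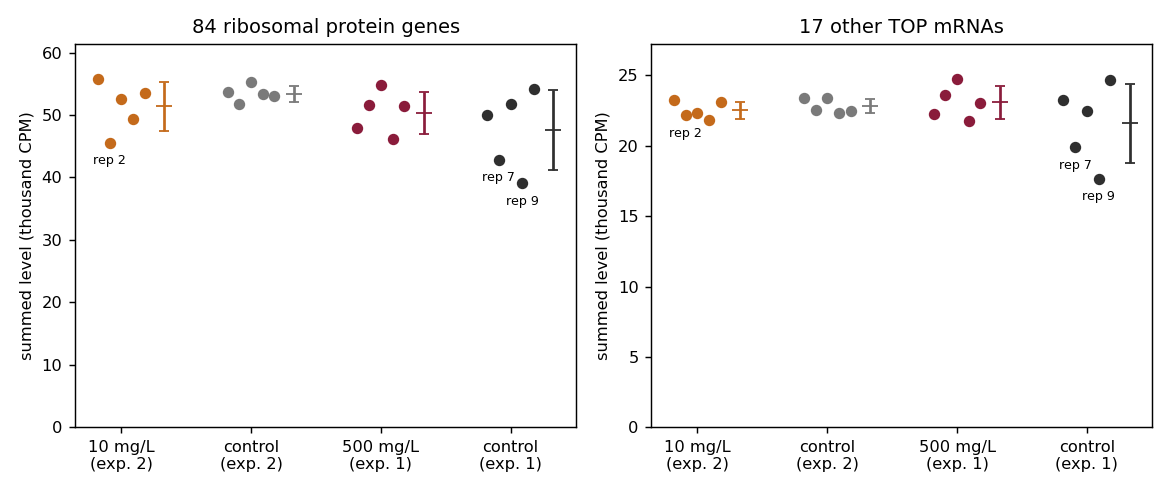
Summed CPM of the 84 members (left) and of 17 other TOP mRNAs (right) in each mouse, with mean and SD, for 10 mg/L and control mice of experiment 2 and for 500 mg/L and control mice of experiment 1. The controls of experiment 1 have the widest spread for the members (47570 ± 6369 CPM), and those of experiment 2 the narrowest (53420 ± 1281 CPM).

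The direct test of whether the effects of the doses differed, each against its own controls, called 0 of 84 members in edgeR, against 0.0% of all tested genes, and DESeq2 and limma-trend called 0. Without adjustment (p under 0.05), 2 members were higher in this difference (500 mg/L effect minus 10 mg/L effect) and 0 were lower, against 2.03% and 3.38% of all tested genes. The differences were positive for 77 members and negative for 7, with a median of 0.14 on the log2 scale beside 0.0084 over all genes. Without controls 7 and 9, 44 were positive and 40 negative, and the median was 0.0012. Leaving out these low controls of experiment 1 was bound to lower this difference. Rpl39l had the smallest p (difference 1.05, SE 0.363; adjusted p = 0.865 in edgeR), followed by Rpl10a (0.33, SE 0.149).

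Rpl39l had 0.553, 0.520, 1.06, 0.791 and 1.16 CPM in the 500 mg/L mice, against 0.534, 0.608, 0.602, 0.417 and 0.546 CPM in controls 6 to 10. It had 0.905, 0.528, 0.503, 0.749 and 0.828 CPM in the 10 mg/L mice, against 1.30, 0.693, 0.936, 1.102 and 0.846 CPM in controls 1 to 5. The gene was close to 1 CPM or under it in every mouse, and each exposed group overlapped its own controls.

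A direct comparison of 500 mg/L with 10 mg/L, in which dose and experiment cannot be told apart, called 0 of 84 members in edgeR, against 0.0112% of all tested genes. DESeq2 called 1 member (Rpl34) and limma-trend called 0. At an unadjusted p under 0.05, 3 members were higher and 11 were lower, against 5.61% and 4.43% of all tested genes. In 4 members (Rps19, Rpl17, Rpl38 and Rpl34) every 500 mg/L mouse lay below every 10 mg/L mouse, against 0.769% of all tested genes. With copies summed in, this held for Rps19 and Rpl38 only, as the log2 change was -0.039 for Rpl34 and turned to 0.14 for Rpl17, which alone had -0.34. Rpl34 had a log2 change of -1.02 (SE 0.277; adjusted p = 0.233 in edgeR), and Rps14, a protein of the small-subunit platform, had -0.36 (SE 0.140; adjusted p = 0.395 in edgeR). Rpl11, which with Rpl5 binds Mdm2 when ribosome assembly is disturbed, had a log2 change of 0.23 (SE 0.0880; adjusted p = 0.372 in edgeR).

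More members were called between the 2 sets of control mice, which had not been exposed, than in either dose comparison. In the controls of experiment 1 against those of experiment 2, 2 of 84 members passed in edgeR, Rpl34 and Rps18, both lower, against 0.157% of all tested genes. DESeq2 called 12 members and limma-trend called 4, but the share of all genes that these tools called is not reported here. At an unadjusted p under 0.05, 0 members were higher and 33 were lower, against 5.24% and 4.54% of all tested genes. The log2 changes were negative for 75 members and positive for 9, with a median of -0.18 beside 0.00094 over all genes. Members of both subunits were among them: 18 of 51 large-subunit and 15 of 33 small-subunit members were lower at an unadjusted p under 0.05.

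Markers of other cell types moved in the same comparison, with no call in edgeR. All 3 luteal markers were positive, 2 of them at an unadjusted p under 0.05, with sums of 241 to 3030 CPM in the controls of experiment 1, against 144.5 to 991 CPM in those of experiment 2. All 5 leukocyte markers were positive, 1 at that level (17.4 to 47.5 CPM, against 13.5 to 25.2 CPM). All 6 oocyte markers were negative, 0 at that level (273 to 426 CPM, against 336 to 519 CPM), and of 6 theca markers 1 was higher and 2 were lower at that level. All of these markers passed the filter on low counts, and their part in the members' difference was not tested.

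Rpl34 fell to 24.96, 25.2, 24.6, 19.9 and 29.4 CPM in the controls of experiment 1, against 57.3, 45.8, 57.7, 47.5 and 51.1 CPM in those of experiment 2. The sets were well apart, and the exposed mice followed their experiment except for 10 mg/L replicate 2 (27.0 CPM). The log2 change was -1.06 (SE 0.140; adjusted p = 0.00301 in edgeR). With Rpl34-ps1 summed in, it was -0.16 (SE 0.0894; adjusted p = 0.602 in edgeR), with 366, 322, 388, 307 and 398 CPM in experiment 1 against 396, 382, 416, 408 and 382 CPM in experiment 2. Of that sum, Rpl34 held 6.34% to 7.83% in the controls of experiment 1, against 11.6% to 14.5% in those of experiment 2.

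Rps18, a protein at the head of the small subunit, fell to 315, 266, 285, 257 and 339 CPM in the controls of experiment 1, against 409, 389.6, 428, 383 and 409 CPM in those of experiment 2. Every mouse of the first set lay below every mouse of the second. The log2 change was -0.46 (SE 0.0926; adjusted p = 0.0490 in edgeR). Without controls 7 and 9 it was -0.36 (SE 0.101; adjusted p = 0.290 in edgeR), and the call was lost.

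Rps19 and Rpl37 did not pass the threshold. Rps19 had 356, 424, 494, 341 and 459 CPM in the controls of experiment 1, against 594, 591, 567, 578 and 525.9 CPM in those of experiment 2 (log2 change -0.46, SE 0.0944; adjusted p = 0.0516 in edgeR). Rpl37 had 152, 131, 173, 121 and 172 CPM against 218, 215, 239, 213 and 221 CPM (log2 change -0.56, SE 0.114; adjusted p = 0.0516 in edgeR). Neither gene's control sets overlapped. Rpl37 also has a near-identical copy, Rpl37rt, with 290 of 291 coding bases in common, and took 38.1% to 57.7% of the counts of the pair. With Rpl37rt summed in, its log2 change was -0.28 (SE 0.0948; adjusted p = 0.333 in edgeR) and the control sets overlapped.

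**Figure D5:**
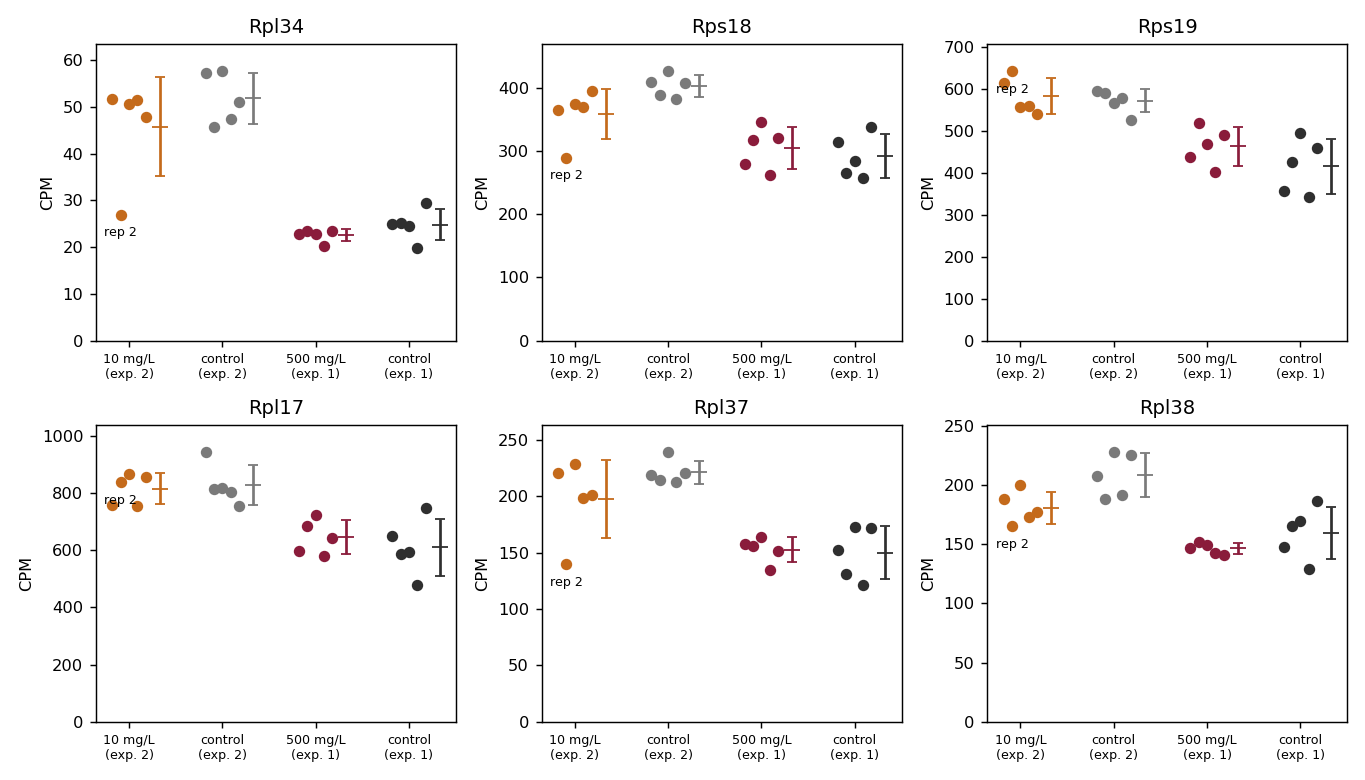
CPM of Rpl34, Rps18, Rps19, Rpl17, Rpl37 and Rpl38 in each mouse, for 10 mg/L and control mice of experiment 2 and for 500 mg/L and control mice of experiment 1. For Rps19 and Rpl17, all 10 mice of experiment 1 lie below all 10 mice of experiment 2, which for Rpl17 does not hold once its copies are summed in.

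In 19 members, 22.6% of 84, every control of experiment 1 lay below every control of experiment 2, against 1.66% of all tested genes, and in 0 members was the order the other way round. With copies summed in, 16 members (19.0%) did so, and Rpl34, Rpl17 and Rpl37 did not. Besides those named, the 19 included Rpl38, Rpl24, Rps29 and the paralogs Rps27l, Rpl22l1 and Rpl39l. Over all mice, the 10 of experiment 1 lay below the 10 of experiment 2 in 2 members, Rps19 and Rpl17, against 0.0842% of all tested genes, and with copies summed in only in Rps19. Rpl17 alone had 597, 686, 724, 579 and 642 CPM at 500 mg/L, against 648, 586, 593, 477 and 747 CPM in the controls of that experiment. At 10 mg/L it had 759.9, 837, 867, 754 and 857 CPM, against 943, 814, 819, 803 and 755 CPM in the controls of that experiment. Within each experiment exposed and control mice overlapped, while for the unsummed counts no mouse of one experiment reached the range of the other. With Rpl17-ps8 and Rpl17-ps10 summed in, Rpl17 had 824, 1001, 1029, 837 and 945 CPM at 500 mg/L, against 856, 586, 835, 477 and 992 CPM in the controls of experiment 1. At 10 mg/L the sum was 848, 838, 871, 757 and 887 CPM, against 945, 827, 821, 908 and 757 CPM in the controls of experiment 2, so the experiments overlapped. The log2 change of the sum between the control sets was -0.19 (SE 0.143; adjusted p = 0.730 in edgeR).

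Controls 7 and 9 had the lowest summed levels, so leaving them out was bound to shrink the difference between the control sets. For Rpl34 the difference remained. The median log2 change of the members was then -0.047, 55 were negative and 29 positive, and 16 were lower and 2 higher at an unadjusted p under 0.05, against 3.79% and 4.60% of all genes tested in that fit. Rpl34 alone was called (log2 change -0.97, SE 0.163; adjusted p = 0.0452 in edgeR). 10 mg/L replicate 2 is in neither control set but is part of the fit. Without it, 18033 genes passed the filter and 50 were called. Of these, 5 were members, among them Rps18, Rps19, Rpl37 and Rpl34. With copies summed in, 0 members were called in edgeR, against 9 of all 17768 genes tested in that fit. At an unadjusted p under 0.05, 29 members were lower, against 4.5% of those genes.

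Of the 28 genes called between the control sets, 2 were members and 7 more were their copies. There were 42 kept copies among the tested genes, and 0.157% of all tested genes were called. Rpl31-ps12 differed most among these copies, with 0, 0, 0.270, 0.741 and 2.59 CPM in the controls of experiment 1, against 64.9, 61.9, 73.6, 35.4 and 71.2 CPM in those of experiment 2 (log2 change -6.39, SE 0.904; adjusted p = 0.00714 in edgeR). The copies Rps15a-ps6 (-0.86), Gm8112 (-2.21), Gm5218 (-0.69), Gm6654 (-2.86) and Gm12508 (-0.56) were also lower, and Rplp2-ps1 was higher (0.59).

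Other genes of the same pathway were read from 3 lists, and none of their genes passed the edgeR test in any of the 7 comparisons. Of 17 TOP mRNAs outside the members, 5 were lower at an unadjusted p under 0.05 in the controls of experiment 1 against those of experiment 2, and 0 were higher, beside 4.54% and 5.24% of all tested genes. They included Eif3f, an initiation factor subunit (log2 change -0.28), Rack1, a scaffold on the small subunit (-0.26), Fau (-0.23), which encodes a ribosomal protein fused to a ubiquitin-like protein, and the elongation factor Eef1a1 (-0.19). The median of the 17 was -0.011. Summed over the 17, controls 9 and 7 had the lowest levels of all mice, 17670 and 19910 CPM, as they did for the members.

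Ribosome biogenesis factors, 46 in all, did not share the tilt between the control sets: 0 were higher and 3 lower at an unadjusted p under 0.05, beside 5.24% and 4.54% of all tested genes, with a median log2 change of 0.0056. Among them were Nop10 (-0.33), a box H/ACA protein, Heatr1 (-0.26) and Eif6 (-0.18), which keeps the subunits apart. At 500 mg/L against all controls, 3 biogenesis genes were higher and 2 lower at that level (4.51% and 4.18% of all tested genes), and Bop1, a factor of large-subunit maturation, had the smallest p (-0.25, SE 0.0794; adjusted p = 0.360 in edgeR). At 10 mg/L, 0 were higher and 4 lower (3.08% and 3.14% of all tested genes), and Gar1, of the box H/ACA complex, had the smallest p (-0.34, SE 0.0996; adjusted p = 0.633 in edgeR).

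The mTOR arm held 12 genes. Eif4ebp2, a repressor of cap-dependent translation, had an unadjusted p under 0.05 at both doses against all controls, with log2 changes of -0.13 at 500 mg/L and -0.20 at 10 mg/L (edgeR adjusted p = 0.553 and 0.633). These comparisons share their controls. Against its own controls, 0 genes of the arm were at that level at 500 mg/L, while Eif4ebp2 was at 10 mg/L (-0.22). Tsc2, a brake on mTOR, had 0.11 at 10 mg/L against all controls (adjusted p = 0.761 in edgeR). Larp1, the TOP-binding repressor, had a log2 change of -0.13 at 500 mg/L (edgeR adjusted p = 0.551). Between the control sets, Rps6kb1, the kinase of Rps6, had a log2 change of 0.23 (SE 0.0687; adjusted p = 0.233 in edgeR). The summed level of the arm ran only from 1011 to 1154 CPM over all 20 mice.

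The markers of the follicle were present in every group. The 6 granulosa markers summed to between 5468 and 9717 CPM over the 20 mice, the 6 theca markers to between 1274 and 7180 CPM and the 6 oocyte markers to between 267.5 and 587 CPM. Control 7 had the highest theca sum.

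In the authors' deposited table, members did pass at an adjusted p under 0.05. For 500 mg/L against controls, 2 of 84 members passed in the authors' deposited table, against 1.26% of its 18169 genes: Rpl38 with a signed fold of -1.24 (adjusted p = 0.0324) and Rpl34 with -1.58 (adjusted p = 0.0424), where a negative fold means lower at 500 mg/L. For 500 mg/L against 10 mg/L, 6 passed in the authors' deposited table, against 1.59% of its genes, all lower at 500 mg/L: Rpl34 (-1.98), Rps14 (-1.30), Rpl22l1 (-1.29), Rpl37 (-1.29), Rpl38 (-1.24) and Rpl37a (-1.22). For 10 mg/L against controls, 0 members passed in the authors' deposited table, against 0.611% of its genes. The model behind these values is not given in the sources used here.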

How the data were processed

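Poly(A)-selected, stranded libraries were sequenced for 101 cycles, per the labels' protocols. The submitters' processing notes name Salmon 1.2.0, FastQC 0.11.8, edgeR, limma, R 4.1.2 and GRCm39. Neither the indexed annotation nor how transcripts became genes is stated there. The authors deposited estimated counts per gene, not normalised, for 20 mice. They also deposited a table with average log2 expression, a score (F statistic), p-values and, as a score, signed linear folds, used here only for its calls.

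Counts were rounded to whole numbers (median change of a library total, 79.96) and fitted in R 4.3.3 with edgeR 4.0.16: expression filter by group, TMM, robust quasi-likelihood fit to all 20 mice, Benjamini-Hochberg adjustment at 0.05. A model with 3 group means gave comparisons with all controls, since the submitters combined them; a model with means per group and experiment gave the others. SE is derived from the F statistic, and SD is over mice. The script was tested on simulated data. For each contrast every called member and up to 4 members per direction with the smallest p were named, with the members highest and lowest in level per length and in CV, the paralogs and the stalk genes; those named beyond this rule (genes with copies, groups without overlap, the authors' calls) were chosen after their values were seen.

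Members and lists were chosen with earlier results of these data known. Copies by sequence, and leaving out controls 7 and 9, were added after seeing the data. Alternatives were RLE (DESeq2 size factors) or upper-quartile factors, scaling without the members or by library totals, no filter, DESeq2 1.42.0, limma-trend (limma 3.58.1), only the mice compared, pseudogenes or copies summed in, no paralogs, a replicate block and each mouse left out. Replicate numbers did not pair mice: the correlation of same-numbered mice ran from -0.13 to 0.23. Protein sequences were not used here. Some genes that the naming rule or the lists take in are not reported here.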

Additional observations from a re-analysis of the deposited data

Results flagged for a closer look

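Single mice far from the rest of their group were sought in 90 groups of values, those of 29 named members and of the summed level, and 9 groups held one. Some such groups arise by chance. The groups share the same mice and are not independent, so 9 of 90 cannot be set against a fixed rate. In the 10 mg/L group, replicate 2 was the low mouse for Rpl34 (26.99 CPM), Rps18 (290.0 CPM) and Rps24 (613.9 CPM), the mouse described above for its content of RNAs without a poly(A) tail. In the 500 mg/L group, replicate 4 was low for Rpl34 (20.33 CPM) and high for Rps6 (63.55 CPM), both members that have a near-identical copy. Among the controls, replicate 9 was low for Rpl23 (641.0 CPM), and replicate 10 was high for Rpl36al (204.0 CPM). Replicate 3 was high for Rpl6l (0.8576 CPM), and replicate 4 was high for Rpl7l1 (133.4 CPM).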

How the results depend on the processing

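With numbers shared by replicates as a block, which compares 500 mg/L (experiment 1) with controls 1 to 5 of experiment 2 alone because controls 6 to 10 share no number, 2 members were called at 500 mg/L against controls (Rpl34, log2 change -1.19, and Rpl38, -0.50) and 1 at 500 against 10 mg/L (Rpl34, -0.99). The block turned Rpl17 at 10 mg/L against all controls to -0.022. DESeq2 called 1 member at 500 against 10 mg/L. Between the control sets, members called numbered 12 with DESeq2, 4 with limma-trend, 1 each with upper-quartile factors, no filter, only the mice compared and without controls 7 and 9, and 0 with named pseudogenes or all copies summed in; leaving out 1 mouse gave 1 to 5. Rpl34 passed there in each of the 20 fits without 1 mouse, and Rps18 in 4. The shares of all genes called with DESeq2, limma-trend and the block are not reported here. The median without controls 7 and 9 was -0.053 for 500 mg/L against its own controls and 0.0012 for the difference between dose effects. With copies, summed levels were 54340 CPM at 500 mg/L and 57000 CPM in controls of experiment 2 (55230 CPM with named pseudogenes). Copies turned the direction of Rpl26 (10 mg/L against all controls -0.027, own controls -0.11, difference 0.21), Rps6 (10 mg/L against own controls -0.12, control sets -0.067, difference 0.20), Rpl21 (500 mg/L against own controls 0.097, difference 0.20) and Rpl30 (difference 0.12); named pseudogenes gave the same for Rps6. Over all 84 members, copies turned the sign of 3 to 9 members per comparison, among them Rpl17 (500 mg/L against all controls 0.21, 500 against 10 mg/L 0.14) and Rpl37 (500 mg/L against all controls 0.060). The causes of the other changes were not tested. Of 584 values of named members under alternatives, 555 kept direction and side of the threshold. Precision was limited by the spread between mice and by the tie of dose to experiment. Counts of members with a near-identical copy were uncertain singly, and how reads were shared with copies was not tested.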
